A study of Mus musculus with 10 samples.

Results

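Cells store surplus fatty acids and cholesterol as neutral esters in lipid droplets. Here sorted mouse retinal cells that the labels name microglia were used to follow 10 genes of this store. They are the coat protein genes Plin2 and Plin3, the lipase genes Pnpla2, Lipe, Mgll and Lipa, the lipase regulators Abhd5, G0s2 and Hilpda, and the cholesterol esterification gene Soat1. The genes were chosen by name from the deposited table of expected counts (estimated reads per gene, which need not be whole), where all 10 were found among 21869 genes. Earlier results of these data were known when the genes were chosen. Plin2 stands on 2 lines of the table with different values, and the line with the higher mean was used.

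A droplet is a core of triglyceride and cholesteryl ester under a single phospholipid layer, and perilipins on its surface limit the access of lipases. Triglyceride is taken apart in sequence by adipose triglyceride lipase (Pnpla2), hormone-sensitive lipase (Lipe) and monoglyceride lipase (Mgll). The first step is activated by ABHD5 and inhibited by G0S2 and HILPDA. Esters that reach the lysosome are cut by acid lipase (Lipa), and free cholesterol is esterified again by SOAT1. Microglia and macrophages that have taken up cell debris or lipoproteins are known to accumulate such droplets.

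The samples are retinal cells of mice that the titles call WT, sorted as live CD11b-positive cells of intermediate CD45, which the labels name microglia. CD36 is a scavenger receptor that takes up long-chain fatty acids and oxidised lipoproteins, and it divided the gate into a CD36-positive group of 5 libraries (1, 2, 3, 4 and 7) and a CD36-negative group of 5 (1, 2, 4, 7 and 8). The protocol describes an intravenous injection of sodium iodate (NaIO3, 20 mg/kg), which is toxic to the retinal pigment epithelium, or of saline (PBS), and collection after 7 days. Which of these the 10 sorted samples received, their strain, age and sex, and whether each came from 1 mouse or several are not given in the sources used here, so no treatment is compared and p-values measure only the spread between these samples, which may be technical.

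Total counts per library ran from 5001692 to 13250984, and CD36-positive libraries 1 and 3 were the shallowest and stood apart on principal components 2 and 3. Levels are given in CPM, counts scaled to a common library size with TMM factors. Cd36 itself was at 219 ± 39.9 CPM in the CD36-positive libraries and 50.3 ± 5.51 CPM in the CD36-negative ones (n = 5 in each group, SD after ±), with no overlap and a log2 fold change of 2.12, so its transcript went with the label in every library. The 12 microglia markers (P2ry12, Tmem119 and others) were all detected, with summed levels of 12774 to 28612 CPM in the CD36-positive libraries and 12316 to 26807 CPM in the CD36-negative ones, and 0 of them passed the test in edgeR or by the other tools (3 had an unadjusted p under 0.05). In bulk samples such as these, fewer cells of a type and less RNA per cell cannot be told apart.

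The comparison asks how genes of neutral lipid storage and breakdown differ between sorted cells with and without surface CD36. The labels name these cells microglia, but markers of other blood cell types were higher in the CD36-negative group, as given below. The series title ties CD36 to lipid accumulation. Of the 10 genes, 2 fell in CD36-positive cells, 0 rose and 8 did not pass the test (edgeR's quasi-likelihood test, Benjamini-Hochberg adjusted p under 0.05 over all 11596 genes tested). The genes that fell were G0s2, the lipase inhibitor, and Lipe, hormone-sensitive lipase. G0s2, with 0 counts in the CD36-positive libraries, entered the test through the CD36-negative ones alone. At an unadjusted p under 0.05 there were 3 lower genes, with Pnpla2 added, and 0 higher. DESeq2's Wald test called these 3 lower and 0 higher, and limma voom called 2 lower and 0 higher. Over all genes tested, 4.74% were lower and 2.61% higher, 7.36% in all. The median log2 fold change of the 10 genes was -0.09, also with G0s2 set to its limit, against 0.02 for all genes tested. The 2 coat genes and the 2 cholesteryl ester genes had log2 fold changes within 0.17 of 0.

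**Figure D1:**
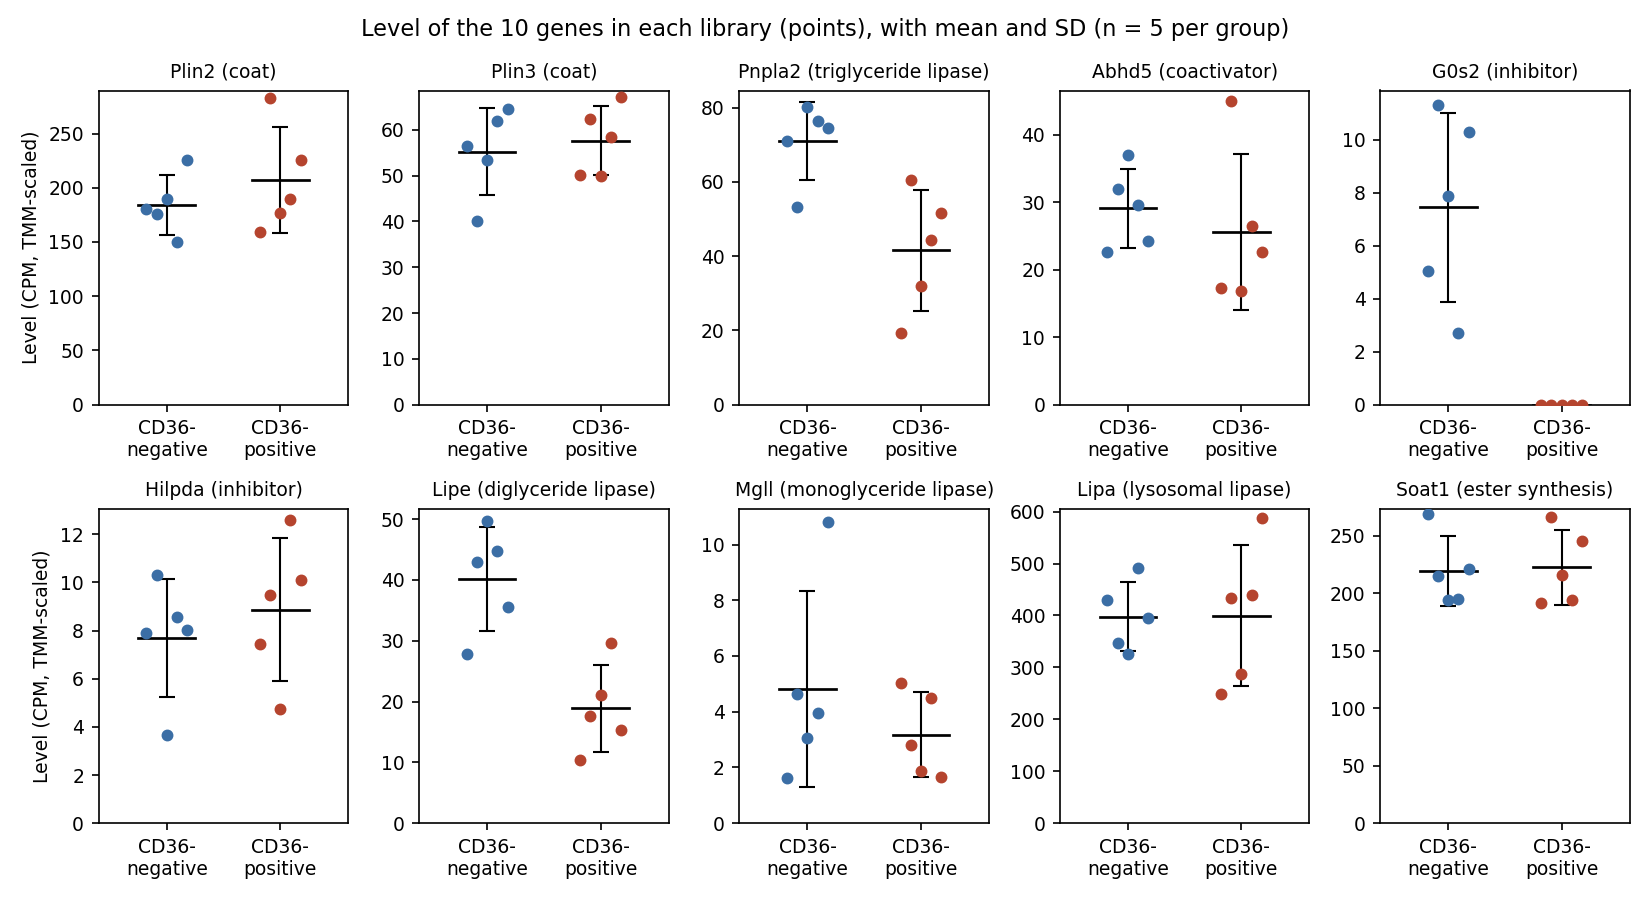
Level of each of the 10 genes in CPM (vertical axes from 0) in the 5 CD36-negative (blue) and 5 CD36-positive libraries (red); points are libraries, bars the mean and SD. G0s2 is at 0 in all CD36-positive libraries, Lipe and Pnpla2 lie lower there with some overlap, and the other 7 genes overlap broadly.

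Of the coat proteins, PLIN2 is bound to droplets nearly all the time and is degraded without them, so the protein is a usual marker of droplet load. Only its transcript was counted here, so droplet load is not read from it. Plin2 stood at 159, 283, 177, 190 and 226 CPM in CD36-positive libraries 1, 2, 3, 4 and 7, and at 180, 176, 190, 150 and 226 CPM in the CD36-negative ones 1, 2, 4, 7 and 8. CD36-positive library 2 was the highest of the 10, and the other 4 lay among the CD36-negative values. The difference of 207 ± 49.2 against 184 ± 27.7 CPM was smaller than the spread (log2 fold change 0.17, SE 0.19, 95% interval -0.23 to 0.56, edgeR adjusted p = 0.671). A doubling of the Plin2 transcript lies above that interval.

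Plin3, whose protein moves from the cytosol to newly formed droplets, was at 50.2, 62.3, 50.0, 58.3 and 67.2 CPM in the CD36-positive libraries in the same order. In the CD36-negative libraries it was at 56.4, 40.1, 53.4, 61.8 and 64.5 CPM. The groups overlapped, with coefficients of variation of 13.1% and 17.3%. Its log2 fold change was 0.06 (95% interval -0.34 to 0.47, edgeR adjusted p = 0.891).

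The second Plin2 line of the table held far fewer counts, 18 over the CD36-positive and 248 over the CD36-negative group. It was at 0, 0, 1.58, 0 and 0.555 CPM in the CD36-positive libraries and at 2.40, 4.73, 5.93, 2.51 and 7.60 CPM in the CD36-negative ones. The groups did not overlap, while over all genes tested 5.83% had every CD36-positive library below every CD36-negative one. Its log2 fold change of -3.41 (SE 1.06) had an edgeR adjusted p of 0.0619. The sources used here do not say which transcript or locus this line counts, and with both lines added Plin2 was at 0.13 (edgeR adjusted p = 0.744).

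Adipose triglyceride lipase, the enzyme of the first step, was lower on average in CD36-positive cells without passing the test. Pnpla2 stood at 19.2, 60.4, 32.1, 44.3 and 51.7 CPM in CD36-positive libraries and at 71.0, 53.3, 80.1, 76.4 and 74.5 CPM in CD36-negative ones. All 5 CD36-positive libraries were below the CD36-negative mean and 4 of 5 below the lowest CD36-negative library; CD36-positive library 2 overlapped. The log2 fold change was -0.77 (SE 0.26, 95% interval -1.32 to -0.22, unadjusted p = 0.00901, edgeR adjusted p = 0.0876). It passed in only 2 of 22 alternatives, DESeq2's Wald test (adjusted p = 0.0435) and edgeR without CD36-positive library 2 (-0.95, adjusted p = 0.0425). Pnpla2 was at -0.46 without CD36-positive libraries 1 and 3 (edgeR adjusted p = 0.211). The highest edgeR adjusted p, 0.293, came from the 8 samples that share a replicate number, fitted without a replicate block (-0.67). The line of Pnpla2 is the 1 line of the set that crosses a 1 kB boundary of the deposited file, and other lines at such boundaries were damaged, so its values rest on that line being intact.

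Abhd5 encodes the coactivator that raises the activity of adipose triglyceride lipase many times. Its levels were 17.3, 45.0, 16.8, 26.4 and 22.6 CPM in the CD36-positive libraries and 22.6, 31.9, 37.0, 29.6 and 24.3 CPM in the CD36-negative ones. CD36-positive library 2 held the highest value of all 10 and libraries 1 and 3 the lowest, so the CD36-positive group spanned the other (coefficient of variation 45.1% against 20.1%). The log2 fold change was -0.18 (95% interval -0.79 to 0.43, edgeR adjusted p = 0.777), and 0.09 without CD36-positive libraries 1 and 3.

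The G0s2 protein binds and inhibits the same lipase, and its gene was first described as one induced in blood cells that enter the cell cycle. No CD36-positive library held a count of it. CD36-negative libraries 1, 2, 4, 7 and 8 held 59, 112, 77, 26 and 123 counts, or 5.06, 11.3, 7.87, 2.71 and 10.3 CPM. With a floor of 3 counts over the CD36-positive group (0.0702 CPM) against the pooled 7.50 CPM of the CD36-negative group, G0s2 was at least 107-fold lower, a limit that covers counting error only (edgeR adjusted p = 2.52e-04). It was the only 1 of the 10 genes whose groups did not overlap, while of all genes tested 5.83% were lower and 2.59% higher without overlap. G0s2 passed the main filter (filterByExpr, minimum count 10) only through the CD36-negative libraries. A call could therefore only be lower, and its p-value is given as a description. The strictest filter, 10 CPM in 5 samples, left G0s2 out of the test.

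Hilpda encodes a second inhibitor of this lipase, induced by hypoxia and by fatty acids. It was at 7.44, 9.48, 4.73, 12.6 and 10.1 CPM in the CD36-positive libraries and 7.89, 10.3, 3.68, 8.56 and 8.02 CPM in the CD36-negative ones. Both groups spread over a similar range and overlapped. With 33 to 127 counts per library its log2 fold change of 0.21 had an interval from -0.69 to 1.11 (edgeR adjusted p = 0.830), so the interval takes in a doubling.

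**Figure D2:**
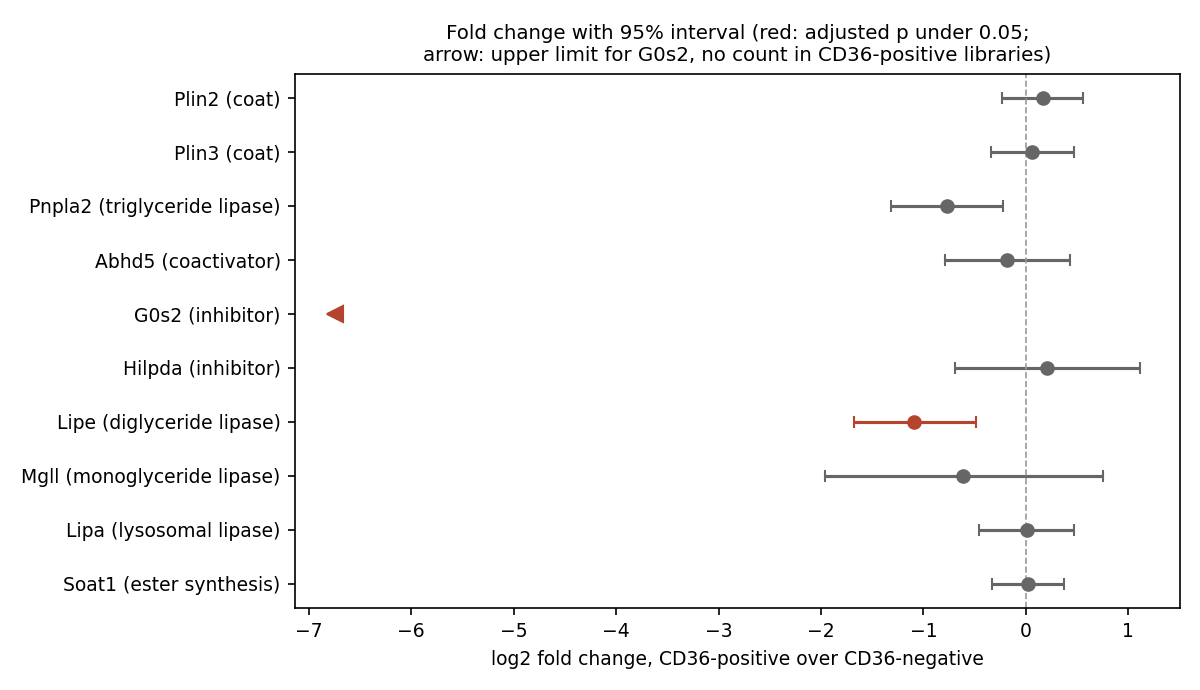
Log2 fold change of each gene, CD36-positive over CD36-negative (horizontal axis), with its 95% interval; red marks genes with an edgeR adjusted p under 0.05. G0s2 is drawn as an arrow at its limit of -6.74, Lipe lies at -1.09, and the interval of Pnpla2 stays below 0 although its adjusted p was 0.0876.

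Hormone-sensitive lipase cleaves diglycerides and also cholesteryl esters outside the lysosome, and it is the main neutral cholesteryl ester hydrolase of several tissues. Lipe was at 10.4, 17.7, 21.1, 29.7 and 15.4 CPM in CD36-positive libraries 1, 2, 3, 4 and 7. In CD36-negative libraries 1, 2, 4, 7 and 8 it was at 27.8, 43.0, 49.7, 44.8 and 35.5 CPM. CD36-positive library 4 lay just above CD36-negative library 1, and the other 4 CD36-positive libraries lay below all CD36-negative ones. The means were 18.9 ± 7.21 and 40.2 ± 8.59 CPM, a log2 fold change of -1.09 (SE 0.28, 95% interval -1.68 to -0.49, edgeR adjusted p = 0.0242) that left 47.1% of the CD36-negative level. The direction was the same in every alternative fit, but the call was lost without CD36-negative library 2, 4 or 7 (adjusted p = 0.0568, 0.0712 and 0.0634 at -1.06, -1.02 and -1.05) and without CD36-positive libraries 1 and 3 together (-0.95, adjusted p = 0.0628). It was also lost in the 8 samples that share a replicate number, fitted without a replicate block (-1.17, edgeR adjusted p = 0.0626). Exons of Lipe share 918 bases with an annotated antisense gene, 4732471J01Rik, and as the sources used here do not say whether counting used strand, reads of the pair cannot be told apart.

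Monoglyceride lipase completes the breakdown and also inactivates the endocannabinoid 2-arachidonoylglycerol, a role for which it is best known in brain. Mgll had only 13 to 129 counts per library. It stood at 5.02, 2.82, 1.86, 4.50 and 1.66 CPM in the CD36-positive libraries and 1.63, 4.63, 3.07, 3.97 and 10.8 CPM in the CD36-negative ones. CD36-negative library 8 was high, and without it the log2 fold change moved from -0.61 (95% interval -1.96 to 0.75, edgeR adjusted p = 0.644) to -0.07. Exons of Abhd5 and Mgll also share bases with antisense genes (950 with A730085K08Rik and 167 with Gm26588).

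For G0s2 and Lipe, the genes that fell, and Pnpla2, whose protein G0S2 inhibits, the bases before an annotated start are shown because these 3 were lower at an unadjusted p under 0.05. On GRCm38, the GENCODE M21 annotation places these protein-coding genes on chromosome 1 from 193272161 to 193273217 (G0s2, minus strand) and on chromosome 7 from 25379527 to 25398710 (Lipe, minus strand) and from 141455198 to 141460743 (Pnpla2, plus strand). Sequences are RefSeq's on GRCm38.p6, the build the submitters' processing notes call mm10, written 5′ to 3′ on the strand of the gene and limited to bases outside annotated exons. They span chr1:193273218-193273337 (minus strand, 120 bases) for G0s2, chr7:25390113-25390351 (minus strand, 239 bases, inside the gene before its downstream start) for Lipe, and chr7:141454938-141455187 (plus strand, 250 bases) for Pnpla2. Capitals mark matches on either strand to 5 motifs: the TATA box TATAAA, the CCAAT box CCAAT, the GC box GGGCGG, the E-box CACGTG and the purine-rich core GAGGAA of ETS factors such as PU.1.
G0s2: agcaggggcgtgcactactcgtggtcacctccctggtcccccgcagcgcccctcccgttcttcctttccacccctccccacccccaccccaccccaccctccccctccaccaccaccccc
Lipe: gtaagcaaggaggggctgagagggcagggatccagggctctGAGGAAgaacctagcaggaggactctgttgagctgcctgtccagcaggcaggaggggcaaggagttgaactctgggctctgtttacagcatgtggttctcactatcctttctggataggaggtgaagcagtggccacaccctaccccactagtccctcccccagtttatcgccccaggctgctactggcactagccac
Pnpla2: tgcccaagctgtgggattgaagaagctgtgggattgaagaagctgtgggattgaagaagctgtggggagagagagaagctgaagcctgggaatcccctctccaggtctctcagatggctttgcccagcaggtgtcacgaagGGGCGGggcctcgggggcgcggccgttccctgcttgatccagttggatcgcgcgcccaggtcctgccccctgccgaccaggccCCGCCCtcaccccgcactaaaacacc
The G0s2 stretch held no match. The Lipe stretch held 1 GAGGAA, a motif found in 22.3% of all 32851 RefSeq windows over the same bases. Pnpla2 held 2 GC boxes, found in 32.7% of windows. The full window of 250 bases of G0s2, which includes bases of annotated exons not printed here, held 1 GC box. The full window of Pnpla2 is the stretch printed above. The window of the upstream Lipe start, which lies in an exon, held 6 GC boxes, 1 CACGTG and 1 GAGGAA. A match describes letters only.

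Lipa and Soat1 work in opposite directions on cholesteryl ester. Their CPM were among the highest of the set in both groups, without regard to gene length. Lipa was at 248, 433, 288, 440 and 588 CPM in the CD36-positive libraries and 430, 346, 326, 491 and 396 CPM in the CD36-negative ones. The CD36-positive libraries spread both below and above the others, with libraries 1 and 3 lowest and library 7 highest (coefficient of variation 34.0% against 16.6%). The means were 399 and 398 CPM (log2 fold change 0.01, 95% interval -0.46 to 0.47, edgeR adjusted p = 0.989). Its sign changed in 7 of 22 alternatives, between -0.18 and 0.28.

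Soat1 was at 191, 266, 216, 194 and 245 CPM in the CD36-positive libraries and 269, 215, 194, 195 and 221 CPM in the CD36-negative ones. The ranges were nearly the same, and the log2 fold change was 0.02 (95% interval -0.33 to 0.37, edgeR adjusted p = 0.951). This interval is the narrowest of the 10 genes.

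**Figure D3:**
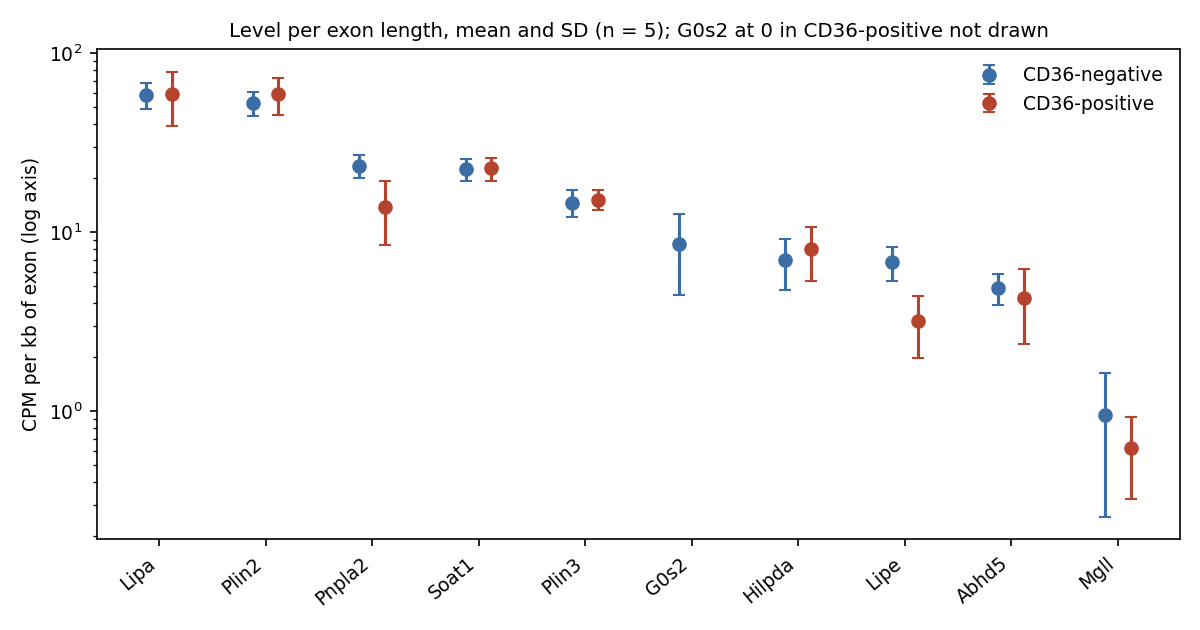
Mean level per kb of annotated exon (CPM per kb, log axis) with SD, in CD36-negative (blue) and CD36-positive (red) libraries, ordered by the CD36-negative level. Lipa and Plin2 lie at the top near 58.7 and 52.5 in CD36-negative cells and Mgll at the bottom at 0.948; G0s2 has a value in CD36-negative cells only.

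Levels of different genes can be compared only per length, here CPM per kb of all annotated exon bases, which understates genes with long alternative exons. On this scale Lipa (58.9 ± 20.0) and Plin2 (58.9 ± 14.0) were level in CD36-positive cells. Soat1 (22.7 ± 3.33) was lower, Plin3 (15.2 ± 1.99) and Pnpla2 (13.8 ± 5.38) did not differ beyond their spread, and Hilpda stood at 8.04 ± 2.68. Abhd5 (4.30 ± 1.94) and Lipe (3.20 ± 1.22) overlapped, and Mgll was at 0.625 ± 0.301. In CD36-negative cells Pnpla2 (23.5 ± 3.46) was level with Soat1 (22.4 ± 3.09) and above Plin3 (14.6 ± 2.52), and Lipe (6.82 ± 1.46) was level with Hilpda (mean 6.97) and G0s2 (8.54 ± 4.10). The lysosomal lipase transcript was more abundant per length than any of the 3 cytosolic lipase transcripts in both groups.

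Ratios of gene pairs within a library do not depend on how libraries are scaled, and 5 were compared with a two-sided exact permutation test (smallest possible p = 0.00794, adjusted over the 5). The log2 ratio of coactivator to lipase, Abhd5 to Pnpla2, was -0.15, -0.42, -0.93, -0.75 and -1.19 in CD36-positive and -1.65, -0.74, -1.11, -1.36 and -1.61 in CD36-negative libraries. Only CD36-positive libraries 1 and 2 lay above every CD36-negative one, and the difference of 0.61 did not pass (exact permutation p = 0.0635, adjusted p = 0.317). Lipe to Pnpla2 was at -1.11 ± 0.60 against -0.84 ± 0.40, a difference of -0.28 (exact permutation p = 0.405, adjusted p = 0.810, n = 5 each). The groups overlapped, with CD36-positive libraries 2 and 7 below every CD36-negative one. Mgll to Pnpla2 (0.41), Plin2 to Plin3 (0.08) and Lipa to Soat1 (-0.07) differed by less than the spread between libraries, with exact permutation p of 0.595, 0.714 and 0.810 and an adjusted p of 0.810 for each.

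**Figure D4:**
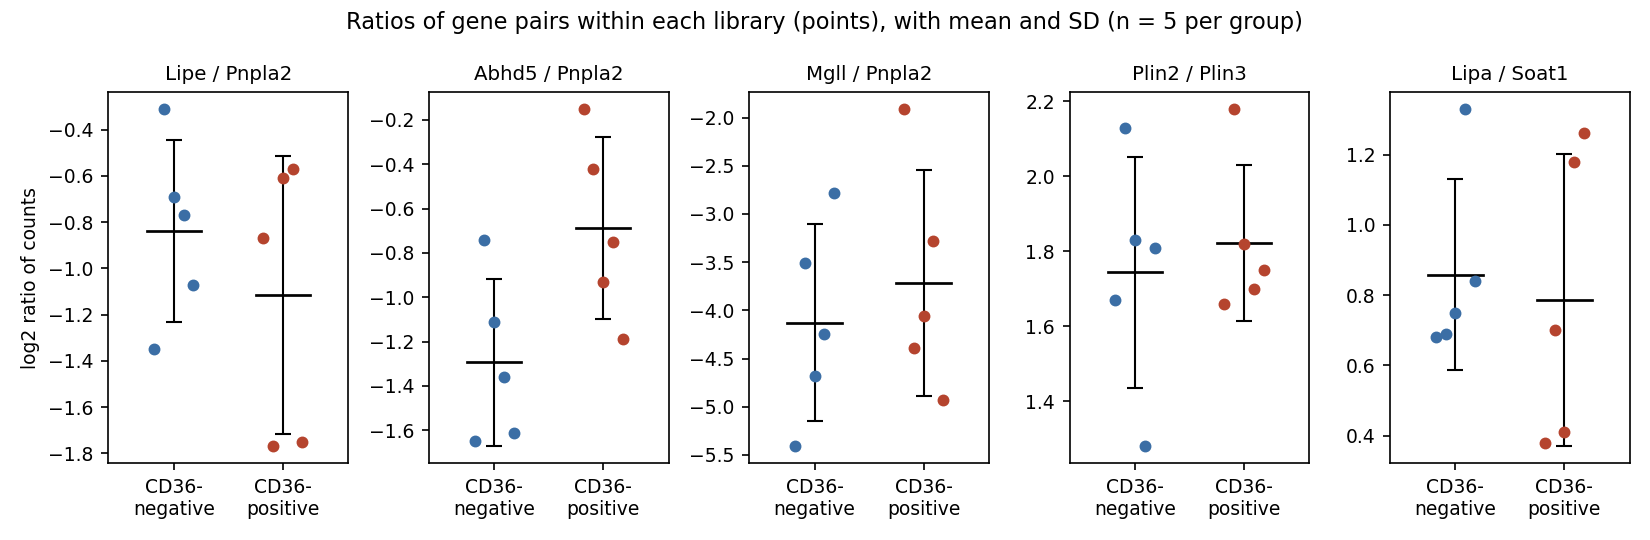
Log2 ratio of counts of 5 gene pairs in each library (points), with mean and SD of the 5 CD36-negative (blue) and 5 CD36-positive (red) libraries. Abhd5 to Pnpla2 has the widest shift, 0.61, and all 5 pairs overlap between groups.

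Single libraries moved several of the 9 genes with counts in both groups. CD36-positive library 1, the shallowest, was the lowest of its group for 5 of them (Plin2, Pnpla2, Lipe, Lipa and Soat1), and library 3 for 3 (Plin3, Abhd5 and Hilpda). CD36-positive library 2 was the highest for 4 (Plin2, Pnpla2, Abhd5 and Soat1). In the CD36-negative group no library was lowest or highest for more than 3.

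Beside G0s2 and Lipe, marker genes of several other blood cell types fell. Of 8 tested neutrophil markers 7 fell, and the sum of the 12 listed was 84.7 to 194 CPM in the CD36-positive libraries and 308 to 851 CPM in the CD36-negative ones, with Retnlg at 0 in all CD36-positive libraries against a CD36-negative mean of 76.6 CPM. Ly6g and Ngp were at 0 in CD36-positive libraries too, but at means of only 0.226 and 0.184 CPM in the CD36-negative ones, so they were near absent from both groups. Csf3r, a growth factor receptor gene that did not pass (120 ± 39.2 against 173 ± 75.0 CPM), made up most of the CD36-positive sum, and S100a9, a calcium-binding protein gene abundant in neutrophils, was at 2.52 ± 4.30 against 117 ± 66.3 CPM. All 11 dendritic cell markers fell (summed 14.8 to 70.5 against 739 to 1110 CPM), as did 5 of 6 tested T and NK cell markers (2.98 to 21.2 against 65.7 to 331 CPM, Prf1 at 0 in CD36-positive libraries and at a mean of 4.38 CPM in the others). Markers at or near 0 in CD36-positive libraries passed the filter on low counts only through the CD36-negative ones. Such genes could hardly be called anything but lower, so these counts of markers are descriptions. Of 12 monocyte markers 8 fell, with overlapping sums of 2834 to 9333 and 5291 to 10255 CPM. Most of both sums was Lyz2, which did not pass (5482 ± 2445 against 6590 ± 1948 CPM). The overlap is therefore mainly that of Lyz2, while S100a6, 1 of the 8, was at 6.99 ± 2.72 against 217 ± 69.8 CPM. Ccr2 (413 ± 174 against 408 ± 64.3 CPM), Fn1 (241 ± 164 against 333 ± 150 CPM) and Vcan (5.21 ± 5.71 against 3.97 ± 2.85 CPM) did not pass either. The part of these cell types in the lower G0s2 and Lipe was not tested.

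In CD36-negative libraries 1, 2, 4, 7 and 8, where G0s2 was at 5.06, 11.3, 7.87, 2.71 and 10.3 CPM, Retnlg was at 106, 70.3, 108, 20.9 and 77.8 CPM. In the same order the neutrophil markers summed to 466, 308, 603, 395 and 851 CPM and the monocyte markers to 8286, 10255, 10175, 5291 and 7048 CPM. G0s2 and Retnlg were lowest in library 7. G0s2 was highest in library 2, where the neutrophil sum was lowest, and next highest in library 8, where that sum was highest. The neutrophil sum includes Csf3r, which did not pass between groups, at 122, 97.5, 144, 226 and 276 CPM in the same order. S100a9 was at 105, 61.2, 143, 57.9 and 218 CPM, lowest in library 7 and highest in library 8. The monocyte sum, most of it Lyz2, was also lowest in library 7 and was nearly level in libraries 2 and 4. Beside Lipe at 27.8, 43.0, 49.7, 44.8 and 35.5 CPM, the dendritic cell markers summed to 1110, 1077, 981, 739 and 854 CPM and the T and NK cell markers to 284, 331, 65.7, 90.4 and 106 CPM. Lipe was lowest in library 1 and highest in library 4. The dendritic cell sum was highest in library 1 and lowest in library 7, and the T and NK cell sum was highest in library 2 and lowest in library 4. Whether Lipe follows either sum was not tested. These 5 libraries are too few for a correlation, and none was computed.

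**Figure D5:**
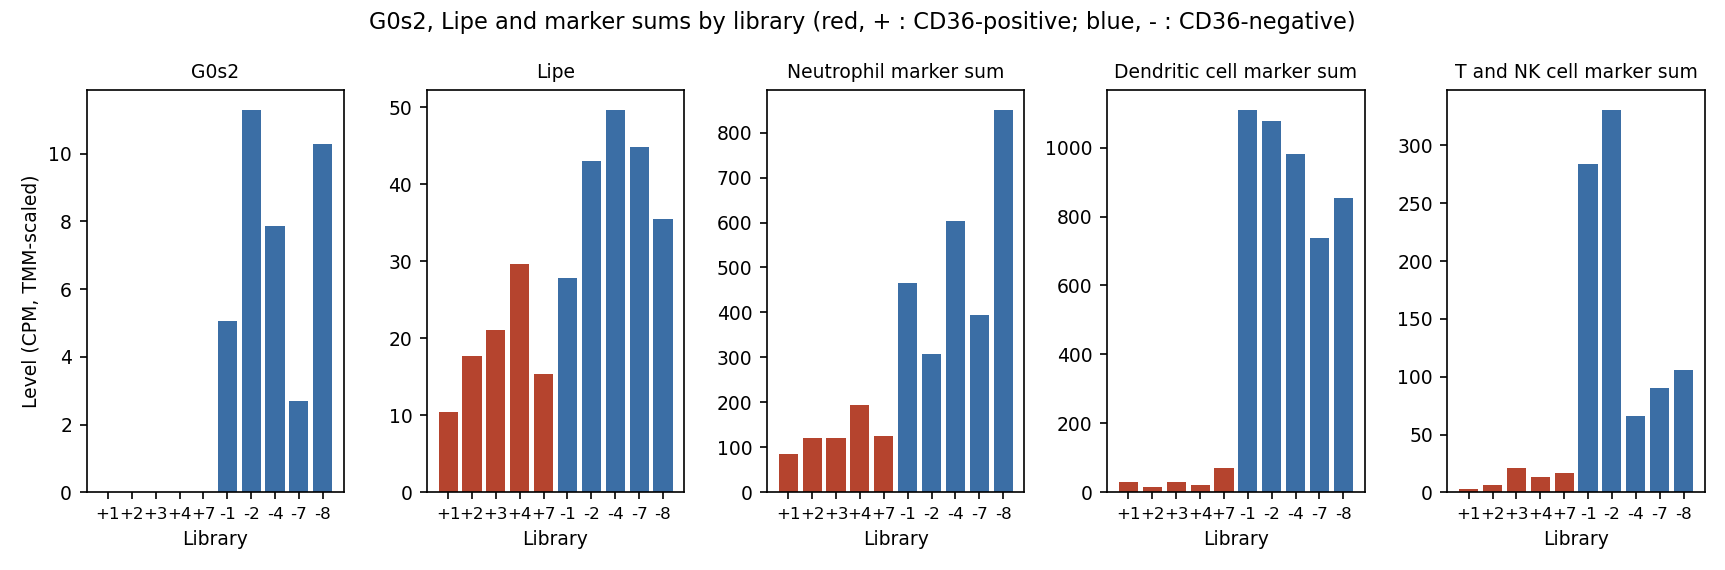
Levels in CPM of G0s2, Lipe and the summed neutrophil, dendritic cell, and T and NK cell markers in each of the 10 libraries (red bars, CD36-positive; blue bars, CD36-negative; each axis from 0). Every CD36-negative library exceeds every CD36-positive one in G0s2 and in the 3 marker sums, and Lipe overlaps in 1 library of each group.

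Fewer genes passed in the marker lists of other macrophages and tissue cells. Of 8 tested border macrophage markers 3 rose, Pf4, Ms4a7 and Clec12a, and 0 fell in edgeR (summed 1005 to 1387 against 387 to 958 CPM). The largest part of the sum was Ms4a7 (799 ± 116 against 310 ± 121 CPM). At an unadjusted p under 0.05, Cd163, Cbr2 and Folr2 were lower, and DESeq2 called Cbr2 and Folr2 lower. The median log2 fold change of the list was -0.07. Of 4 tested endothelial and pericyte markers 2 fell, Pecam1 and Flt1 (10.9 to 14.3 against 27.2 to 46.2 CPM). Müller glia and astrocyte markers rose in 1, Kcnj10, and fell in 1, Clu, of 7 (9918 to 30637 against 15904 to 21538 CPM, most of it Apoe, which microglia also express). Pigment epithelium markers, 2 of which were tested, passed in 0 with edgeR, with DESeq2 and with voom, and 0 had an unadjusted p under 0.05 (7.43 to 15.3 against 2.51 to 29.4 CPM).

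The other genes around the droplet changed in few members. Of 9 tested droplet proteins outside the set, 1 rose and 0 fell (median log2 fold change -0.13 against 0.02 for all genes). The gene that rose was Hsd17b11, a droplet-bound dehydrogenase, at 56.9, 15.1, 36.4, 10.6 and 11.9 CPM in the CD36-positive libraries and 8.58, 12.3, 8.49, 9.08 and 7.44 CPM in the CD36-negative ones (log2 fold change 1.50, edgeR adjusted p = 0.0431). CD36-positive libraries 1 and 3 were high and the groups overlapped. It did not pass in 12 of 20 alternatives: with voom, without CD36-positive library 1 or 3 or both, without any single CD36-negative library, and in 3 fits built on the replicate numbers. No droplet protein fell at an unadjusted p under 0.05 either, with 2 higher at that threshold. Plin5 and Cidec, droplet proteins of oxidative tissue and fat, were at 0 in all 10 libraries.

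Among 9 tested neutral lipid hydrolases outside the set 1 rose and 0 fell (median -0.02). Lpl, lipoprotein lipase, which frees fatty acids from lipoproteins outside the cell, was at 187, 221, 307, 181 and 146 CPM against 113, 104, 91.6, 130 and 93.8 CPM, without overlap, a log2 fold change of 0.97 ± 0.20 (SE) with an edgeR adjusted p of 0.00599. This call held in 19 of 20 alternatives. Lpl moved opposite to Lipe, which acts inside the cell. Of 14 tested genes of neutral lipid synthesis 0 passed in edgeR, DESeq2 or voom, with 1 lower and 0 higher at an unadjusted p under 0.05 (median -0.01). The most abundant, Acsl5, which activates fatty acids, was at 163 ± 36.1 against 210 ± 33.0 CPM, a difference of -0.37 on the log2 scale (edgeR adjusted p = 0.287).

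In the lysosomal list, which surrounds Lipa, 1 of 18 fell and 0 rose (median 0.05, 1 higher at an unadjusted p under 0.05). Gm2a, the activator protein of ganglioside breakdown, was at 405, 1141, 721, 926 and 1034 CPM in the CD36-positive libraries and 1923, 1857, 1367, 1335 and 1568 CPM in the CD36-negative ones, without overlap, a log2 fold change of -0.93 ± 0.24 (SE) with an edgeR adjusted p of 0.0231. It did not pass without CD36-negative library 1 or 2 or CD36-positive library 3. Of the 12 genes of the protein kinase A arm, which phosphorylates hormone-sensitive lipase and perilipins, 1 fell and 0 rose (median 0.03, with 3 higher and 2 lower at an unadjusted p under 0.05; DESeq2 called 1 higher, Pde3b, and the count of higher genes was 1 in 8 of 20 alternatives). Pde4b, a phosphodiesterase that breaks down cyclic AMP, was at 26.9 ± 7.39 against 62.3 ± 15.8 CPM, a log2 fold change of -1.22 ± 0.24 (SE) with an edgeR adjusted p of 0.00402, and this count was the same in every alternative fit.

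Hilpda and Plin2 are known targets of hypoxia-inducible factors and of PPARs, and other targets were listed beside them. Of 15 tested hypoxia-inducible genes 0 passed in edgeR (median -0.04), with 1 higher and 2 lower at an unadjusted p under 0.05; DESeq2 called Ddit4 lower and voom Ddit4 and Ndrg1, and the count of lower genes was above 0 in 10 of 20 alternatives. Of 14 tested PPAR target genes 0 passed in edgeR, DESeq2 or voom, and 0 had an unadjusted p under 0.05 (median -0.25); without CD36-positive library 2, 1 was lower. The most abundant, Ucp2, a mitochondrial carrier gene, was at 703 ± 296 against 829 ± 108 CPM, a difference of -0.24 on the log2 scale (edgeR adjusted p = 0.662).

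Across the 10 libraries, the genes whose log2 CPM followed Plin2 most closely among 5433 genes averaging 5 or more on the log2 CPM scale were Ebp, a sterol isomerase of cholesterol synthesis, Akr1a1, an aldehyde reductase, and Pea15a. Their Pearson r values were 0.93, 0.90 and 0.90, and 0.89, 0.78 and 0.86 without CD36-positive library 2 and CD36-negative library 7, which lay farthest from the Plin2 median. These values are the highest of many and are given as a description of 10 libraries from both sorted groups, which differ in depth. None of the 3 genes passed the test between groups (edgeR adjusted p = 0.803, 0.350 and 0.780).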

How the data were processed

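The authors deposited expected counts per gene symbol for 10 RNA sequencing libraries, not normalized. The submitters' processing notes name fastp 0.18.0, Bowtie2 2.2.8, HISAT2 2.1.0, StringTie 1.3.1 and mm10 without roles; the counting program and its use of strand are not given in the sources used here. Of 22008 lines, 8 damaged and 131 repeated ones were dropped, and 27 symbols turned into dates were left unnamed. Counts were rounded, filtered with filterByExpr (minimum count 10), TMM-scaled and tested with edgeR 4.0.16 (glmQLFit, glmQLFTest) in R 4.3.3 by group, Benjamini-Hochberg adjusted over 11596 genes. Limma 3.58.1 and DESeq2 1.42.0 gave alternatives. Replicate numbers come from the description label. Replicate pairs differed by more than sampling noise (chi-square per degree of freedom 23.3 to 116). A library's floor of 3 counts was 0.238 to 0.558 CPM; floors cover counting error only. On simulated data (11374 genes, 3 simulations of this comparison) 33.2% of 2-fold and 76.7% of 4-fold changes were recovered, and 5.79% of calls were false. The simulations changed equal numbers of genes up and down, fewer than were called here, with noise drawn from the fitted dispersions. These shares hold for those settings only. The members and lists were chosen with earlier results of these data known. Named were the 10 genes, list genes past the threshold or most abundant, leading markers, Cd36 and the 3 genes most like Plin2; others were named after their values were seen. Other assays of the study are not used here. The result of 1 further marker list is not reported here.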

Additional observations from a re-analysis of the deposited data

Results flagged for a closer look

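In CD36-negative library 7 the log2 ratio of Lipa to Soat1 was 1.33, while the other 4 CD36-negative libraries lay between 0.678 and 0.838. Its gap to the nearest of them was 0.753 of the group's whole range. In all 29 groups of 5 libraries were examined this way, and chance flags about 1 group in 20.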

How the results depend on the processing

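The count of 0 higher genes of the set held in all 22 alternatives, and 2 lower genes in 14. There were 3 with DESeq2's Wald test and without CD36-positive library 2 (Pnpla2 added). There was 1 lower gene with the filter of 10 CPM in 5 samples, which left out G0s2, and 1 without CD36-positive libraries 1 and 3; leaving out 1 library gave 1 to 3. G0s2 passed wherever it was tested, each time on counts of the CD36-negative libraries alone. Over all genes, 303 higher became 533 with DESeq2, 188 without CD36-positive libraries 1 and 3, and 132 to 380 with 1 library left out. Same-numbered samples did not clearly pair (correlations of deviations 0.029 to 0.13 by description number and -0.021 to 0.13 by title number). With the description number as a replicate block (8 samples) 181 genes were higher. The same samples without the block, an alternative chosen after seeing the data, gave 146. In this fit without the block 1 gene of the set was lower, G0s2, and Lipe did not pass (-1.17, edgeR adjusted p = 0.0626). With the block Mgll was at 0.04 (0.07 without it) and the log2 ratio of Lipa to Soat1 at 0.02. Hsd17b11, Lpl and Gm2a did not pass with the block.

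Signs also changed as follows. Lipa was at -0.05 with the title number as a replicate block, -0.12 with detected genes as a covariate, and, with 1 library left out, -0.18 to 0.13 (-0.04, -0.08, -0.04, -0.03 and -0.18 without CD36-negative library 2 or 4 or CD36-positive library 2, 4 or 7). Soat1 ran from -0.06 to 0.10 and was at -0.04, -0.02, -0.06 and -0.02 without CD36-negative library 4 or 7 or CD36-positive library 2 or 7. Plin3 ran from -0.04 to 0.12 and was at -0.04 and -0.005 without CD36-negative library 2 or CD36-positive library 7. Abhd5 was at 0.09 without CD36-positive libraries 1 and 3. There the log2 ratio of Mgll to Pnpla2 was -0.07 and that of Lipa to Soat1 0.19. With 1 library left out, Mgll to Pnpla2 ran from -0.04 to 0.75, Lipa to Soat1 from -0.19 to 0.05 and Plin2 to Plin3 from -0.04 to 0.17. The second Plin2 line gave -3.41, and -4.50 for its ratio to Plin3 (exact permutation, adjusted p = 0.0397). The cause of these changes was not tested. Low counts limit Mgll, Hilpda and the second Plin2 line. The exact sign-flip test over 4 pairs could not go below p = 0.125.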
